A study of Arabidopsis thaliana with 24 samples.

Results

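Medial and Proximal cells of the PUB25 reporter line were 2 of the 3 populations sorted from Arabidopsis thaliana Col-0 root meristems by the intensity of a green fluorescent protein. The comparison rests on 6 of the 24 libraries of the study, 3 of Medial and 3 of Proximal cells. Its readout was the level of 16605 genes of the 32619 gene rows in the deposited table, namely those whose Proximal, Medial and Distal values averaged 1 FPKM or more. An FPKM is a fragment count divided by the length of the transcript and by the size of the library. The gene just inside that limit, AT5G07680, averaged 1.00012 FPKM and the gene just outside it, AT5G09440, 0.99985 FPKM. All PUB25 groups carried the same reporter strain and were protoplasts of the root meristem, that is, cells freed from their walls before sorting. The other lines were the SPT line, likewise root meristem and 3 libraries for each zone, and the TMO5 line, of root meristematic xylem and 2 libraries for each. The labels give no age, no treatment and no promoter beyond the strain name, and do not state which fluorescence level marked a zone or what Proximal and Medial are relative to.

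The root meristem is the growing tip of the root, where stem cells around a quiescent centre supply files of dividing cells. As these cells are displaced from the stem cells they stop dividing, enlarge by filling their vacuoles, loosen their walls and take on the features of epidermis, cortex, endodermis or vascular tissue, while outer root cap cells die and are shed. PLETHORA transcription factors and root meristem growth factor peptides are known to be abundant near the stem cells and to keep cells dividing. In Brassicaceae roots, glucosinolates are stored defence compounds and myrosinases are the enzymes that break them down.

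The authors deposited a single FPKM per gene for each zone, made from its 3 libraries, so the levels below carry neither an error nor an n. Differences are log2 ratios of FPKM + 1, Medial minus Proximal, so that a positive value is higher in Medial cells. A gene is said to have risen or fallen where the authors' deposited table gives it a q value (an adjusted p-value) under 0.05, and a 2-fold difference is given as a description. Whether a gene was lower because fewer cells of a type were sorted or because each held less of its RNA cannot be told apart in such bulk samples.

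Markers of most root tissues were present, while those of phloem and pericycle were as low as those of shoot cells. Summed over the 5 root cap markers in the table, the level was 617 FPKM in Proximal, 708 in Medial and 360 in Distal cells, and 2 of these markers rose while 3 fell. The 4 stem cell niche markers summed to 88.3 and 40.5 FPKM in Proximal and Medial cells, and 2 of them fell. The 7 epidermis markers summed to 135 and 176 FPKM in Proximal and Medial cells, and 6 of them rose. The 8 endodermis markers summed to 14.7 and 32.6 FPKM with 2 rises, and the 10 xylem markers to 53.4 and 53.1 FPKM with 2 rises and 2 falls. The 5 phloem markers in the table reached 1.35 and 1.86 FPKM in all, and the 2 pericycle markers 0.642 and 0.743 FPKM. The 5 markers of photosynthetic shoot cells summed to 4.57 and 1.82 FPKM. AT2G01021 alone reached 748430 FPKM in the Proximal and 1167000 in the Medial population, above the sum of all other genes in each zone.

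The stretches before 5 of the leading rises are shown because they hold a near-identical gene pair, BGLU34 and BGLU35, and 3 genes of developmental cell death, RNS3, MC9 and AT4G04460. Each line gives the 200 bases upstream of the RefSeq gene start, read on the gene's strand 5′ to 3′ from assembly TAIR10.1. Capitals mark CACG or its reverse complement CGTG, the core bound by NAC transcription factors, a family with members among the largest rises and falls.
BGLU34, chr1:17491531-17491730, plus strand: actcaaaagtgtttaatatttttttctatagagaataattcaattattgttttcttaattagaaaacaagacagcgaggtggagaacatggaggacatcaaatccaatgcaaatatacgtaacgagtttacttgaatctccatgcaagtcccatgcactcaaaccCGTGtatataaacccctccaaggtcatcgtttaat
BGLU35, chr1:19087184-19087383, plus strand: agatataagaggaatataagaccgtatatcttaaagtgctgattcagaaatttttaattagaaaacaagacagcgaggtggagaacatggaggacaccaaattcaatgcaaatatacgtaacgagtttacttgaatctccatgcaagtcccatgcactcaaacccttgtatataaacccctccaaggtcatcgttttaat
RNS3, chr1:9293863-9294062, minus strand: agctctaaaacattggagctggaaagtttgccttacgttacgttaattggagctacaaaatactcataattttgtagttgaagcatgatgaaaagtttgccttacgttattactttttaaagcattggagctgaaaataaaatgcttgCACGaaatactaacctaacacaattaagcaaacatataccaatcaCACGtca
MC9, chr5:1153540-1153739, plus strand: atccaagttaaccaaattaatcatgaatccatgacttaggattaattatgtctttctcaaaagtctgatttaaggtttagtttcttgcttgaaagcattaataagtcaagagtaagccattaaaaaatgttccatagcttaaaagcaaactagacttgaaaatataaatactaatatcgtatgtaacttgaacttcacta
AT4G04460, chr4:2224222-2224421, plus strand: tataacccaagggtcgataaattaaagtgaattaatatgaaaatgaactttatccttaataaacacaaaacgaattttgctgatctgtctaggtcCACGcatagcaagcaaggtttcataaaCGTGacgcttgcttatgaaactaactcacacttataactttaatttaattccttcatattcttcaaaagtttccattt
None of these windows overlapped another annotated gene. Of 27443 such windows before protein-coding genes, 39.7% held CACG on either strand, 38.7% the WRKY core TTGAC and 5.64% the palindrome CACGTG, which itself contains CACG. RNS3 and AT4G04460 each held 2 matches to CACG, BGLU34 held 1, and BGLU35 and MC9 held 0. Among the 5 windows, TTGAC was found in that of MC9, and CACGTG in 0. A match is a string of letters in this window and is no binding site by itself.

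BGLU34 and BGLU35 lie apart on chromosome 1, yet their windows matched at 145 of 149 aligned bases in the stretch nearest the gene, and their coding sequences at 1500 of 1536 bases (97.7%). Reads shared by so similar a pair can be assigned to either copy, so their separate levels are uncertain. CSLB01 and CSLB02, which are neighbours, were 85.6% identical in coding sequence.

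Medial cells differed from Proximal cells in more genes upward than downward. At least 2-fold higher stood 1194 genes (7.19% of the genes measured), and 477 were at least 2-fold lower (2.87%). According to the authors' deposited q values, 2440 genes rose (14.7%) and 1938 fell (11.7%), and the median difference over all genes was -0.02. Counts of rises and falls in the lists below are to be read beside these shares of 14.7% and 11.7%. The upward side also reached further, with 330 genes at least 4-fold higher against 81 lower. Of the 477 lower genes, 65 are listed at 0 FPKM in Medial cells, and 63 of the higher ones are listed at 0 in Proximal cells, for which no fold is given. In the authors' deposited table no q value was under 0.000407, and 1941 of the measured genes shared it.

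**Figure D1:**
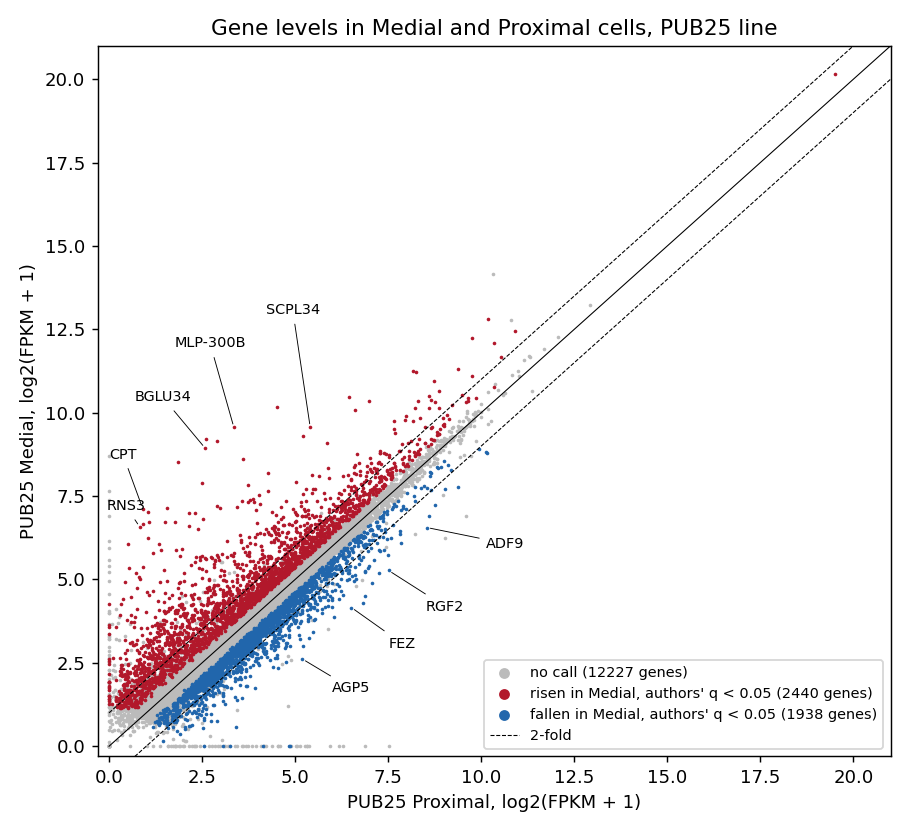
Level of each measured gene in Proximal (x axis) and Medial cells (y axis) of the PUB25 line, both as log2(FPKM + 1), each point being 1 gene with 1 pooled value per zone. The 2440 risen genes spread far above the 2-fold lines at low Proximal levels, while the 1938 fallen genes lie in a narrower band, and the isolated point at top right is AT2G01021.

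The largest rises started from low levels in Proximal cells. The 15 largest among genes with a symbol, above 0 FPKM in both zones and with at least 5 FPKM in the higher zone, had a median of 1.52 FPKM in Proximal (0.425 to 9.23), 104 FPKM in Medial (39.5 to 753) and 300 FPKM in Distal cells (127 to 2338). BGLU34 (AT1G47600, chr1:17491732-17494759), a root myrosinase gene, stood at 4.99 FPKM in Proximal, 490 in Medial and 1829 in Distal cells, a difference of 6.36 between Medial and Proximal. Its near copy BGLU35 (AT1G51470, chr1:19087382-19090539) went through 6.53, 566 and 2338 FPKM (6.24). MLP-300B (AT3G16440, chr3:5585944-5587750), a myrosinase-binding protein-like gene, went through 9.23, 753 and 2202 FPKM (6.20). These 3 genes were lowest in Proximal and highest in Distal cells.

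CPT (AT2G23410, chr2:9966130-9967772), a cis-prenyltransferase gene, had 0.872 FPKM in Proximal, 139 in Medial and 371 in Distal cells, a difference of 6.22. RNS3 (AT1G26820, chr1:9292446-9293784), an S-like ribonuclease gene, stood at 0.771, 94.6 and 320 FPKM (5.75). The neighbouring cellulose synthase-like genes CSLB01 and CSLB02 rose by 5.63 and 5.55, to 104 and 65.9 FPKM in Medial cells. ANAC087 (AT5G18270, chr5:6040919-6042938), a NAC factor known to promote cell death in the root cap, rose from 1.83 to 106 FPKM (5.24). MC9 (AT5G04200, chr5:1153790-1155040), a metacaspase gene of dying cells, stood at 1.25, 54.1 and 337 FPKM (4.62). Metabolic genes made up much of the remainder. HMT3, a homocysteine methyltransferase gene, rose by 5.22, GulLO5, a gulonolactone oxidase-like gene, by 4.72, and EDA36, of a pyridoxal phosphate-dependent enzyme, by 4.80. UGT75B1, a glucosyltransferase gene, rose by 4.46, the latex protein-like gene MLP34 by 4.29 and PCAP1, of a plasma membrane cation-binding protein, by 4.29. UGT75B1 overlaps AT1G05562 on the opposite strand, and since strandedness is not stated the reads of both cannot be told apart. For all 15 the authors' deposited table gives q = 0.000407.

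Genes without a symbol, ranked in the same way after their values were seen, included members of lipid metabolism by their RefSeq product names. AT3G06460, of the GNS1/SUR4 fatty acid elongase family, rose from 2.598 to 369 FPKM (6.68), the largest of these. AT1G06090, a fatty acid desaturase family gene, rose from 5.11 to 587 FPKM (6.59), and AT2G37700, a fatty acid hydroxylase family gene, from 4.61 to 238 FPKM (5.42). AT4G15160, a lipid transfer protein-like gene, reached 1152 FPKM from 21.98 (5.65).

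Under the same limits the largest falls were smaller than the largest rises. The 15 largest, which leave out genes listed at 0 in Medial cells such as the precursor rows MIR172e and MIR159a, had a median of 35.8 FPKM in Proximal (5.63 to 371), 8.37 in Medial (0.947 to 93.3) and 1.98 FPKM in Distal cells (0.401 to 8.41). AGP5 (AT1G35230, chr1:12917149-12917763), an arabinogalactan protein gene, fell from 35.6 to 5.13 FPKM, a difference of -2.58. FEZ (AT1G26870, chr1:9312856-9314983), a NAC factor that promotes the formative divisions of root cap stem cells, had 90.3 FPKM in Proximal, 16.9 in Medial and 1.93 in Distal cells (-2.35). RGF2 (AT1G13620, chr1:4668443-4669471) and RGF3 (AT2G04025, chr2:1276679-1277734), both root meristem growth factor genes, went through 182, 37.6 and 1.67 FPKM and through 132, 28.7 and 2.73 FPKM (-2.24 and -2.16). All 4 were highest in Proximal and lowest in Distal cells.

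NAC094, a further NAC gene, fell from 151 to 35.3 FPKM (-2.06) and ADF9, of an actin depolymerizing factor, from 371 to 93.3 FPKM (-1.98). GBSS1, the granule-bound starch synthase gene, fell by 2.2 on the log2 scale, SGR9, a RING protein gene known from gravitropism, by 1.91 and KRP7, a cyclin-dependent kinase inhibitor gene, by 1.90. The remaining 6 were FP6 (-2.14), ATL63 (-1.88), ASG1 (-1.80), the indole glucosinolate regulator MYB51 (-1.77), the cytochrome P450 gene CYP706A4 (-1.75) and the acyl carrier protein gene ACP5 (-1.75). The authors' deposited table gives all 15 a q of 0.000407. Among genes with no symbol, AT1G62350, a pentatricopeptide repeat gene, fell furthest, from 9.60 to 0.486 FPKM (-2.83), with q = 0.0132 in the authors' deposited table. AT3G53040, a late embryogenesis abundant protein gene, fell from 112 to 18.8 FPKM (-2.51).

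**Figure D2:**
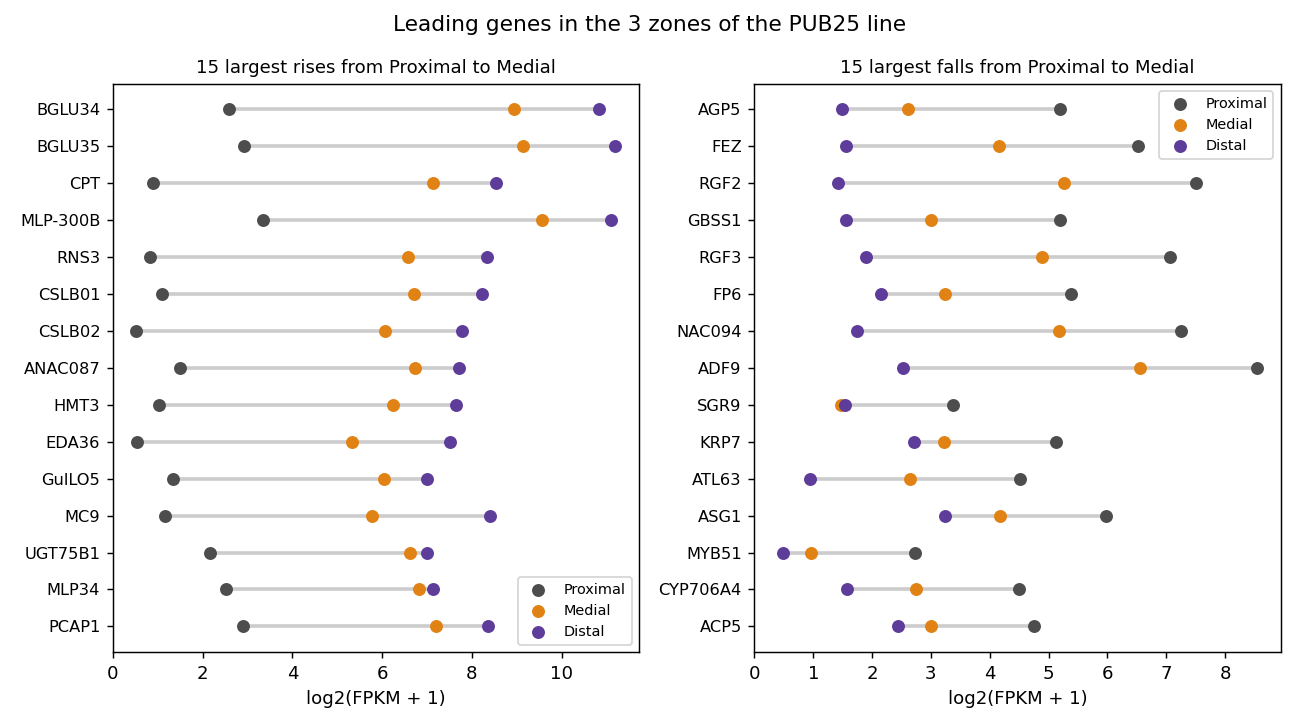
Levels as log2(FPKM + 1) of the 15 genes with the largest rise (left) and the 15 with the largest fall (right) from Proximal to Medial cells, with 1 pooled value for each of the 3 zones of the PUB25 line. Medial cells lie between Proximal and Distal for every gene shown but SGR9, at 1.78 FPKM in Medial and 1.92 FPKM in Distal cells.

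Most leading genes went further the same way in Distal cells. Distal lay beyond Medial for 15 of the 15 rises, 13 of them called in the authors' deposited table (q under 0.05), and for 14 of the 15 falls, 11 of them called. Both differences use the Medial value, and the share over all genes is not given. These counts are therefore description only. A minority of genes had their extreme in Medial cells. Medial stood at least 2-fold over both other zones for 62 genes, 19 of them with both q values under 0.05 in the authors' deposited table, and at least 2-fold under both for 52, 5 of them with both. NAC042, a NAC factor gene, had 21.1 FPKM in Proximal, 84.6 in Medial and 30.9 in Distal cells. ACS8, which encodes an enzyme of ethylene synthesis, stood at 59.0, 129 and 42.8 FPKM, PCR2, of a metal transport protein, at 50.1, 119 and 55.8, and CHX20, of a cation exchanger, at 7.39, 21.8 and 8.85 FPKM. CYP702A5 followed with 8.60, 22.5 and 7.11 FPKM. The 5 named minima, which had both q values under 0.05 in the authors' deposited table, were not 2-fold under both zones. XTR6, a xyloglucan endotransglycosylase gene, stood at 13.4, 5.53 and 9.51 FPKM, APT5 at 6.57, 2.19 and 4.70, PP2C52 at 5.25, 2.12 and 4.28, PDCB5 at 8.95, 5.05 and 11.05 and ABCI1 at 5.11, 2.79 and 5.34 FPKM.

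The reporter genes themselves differed between the zones. PUB25 (AT3G19380, chr3:6714392-6716099), a U-box ubiquitin ligase gene, fell from 9.15 FPKM in Proximal to 4.98 in Medial cells (-0.76) and stood at 5.01 FPKM in Distal cells. SPT (AT4G36930), a bHLH factor gene, fell from 35.7 to 15.9 FPKM (-1.12). TMO5 (AT3G25710), a bHLH factor gene of early xylem, rose from 1.15 to 2.80 FPKM (0.82). For these 3 the authors' deposited table gives q = 0.000407, 0.000407 and 0.00663.

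The calls among genes that break down glucosinolates and among genes that make them went in opposite directions. For comparison, 14.7% of all genes rose and 11.7% fell. Of 15 measured genes for root myrosinases, their binding proteins and nitrile specifiers, 12 rose and 0 fell, with a median difference of 0.84. Beside BGLU34 and BGLU35, the nitrile specifier gene NSP5 rose from 295 FPKM by 1.92 and the jacalin-related lectin gene JAL33 from 34.7 to 146 FPKM (2.04). BGLU22 and BGLU23, members of the same glucosidase family, stood at differences of 0.25 and 0.39 without a call, and ESM1 at -1.9 from 3.16 FPKM, also without one. Of 15 measured genes of glucosinolate synthesis and transport, 0 rose and 9 fell, with a median of -0.74. GSTF9, a glutathione transferase gene of that pathway, fell from 667 to 218 FPKM (-1.61), CYP83B1, an enzyme of the indole glucosinolate core, from 123 to 39.98 FPKM (-1.6) and CYP81F2, which modifies indole glucosinolates, from 9.55 to 3.72 FPKM (-1.16). The regulators MYB51 and MYB34 and the enzyme gene CYP79B3 also fell.

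Of 19 measured stem cell niche and PLETHORA genes, 2 rose, 6 fell and 11 had no call, with a median of 0.03 that was -0.46 when a mean of at least 5 FPKM was asked for. Over all genes 11.7% fell. PLT1 fell from 47.4 to 18.3 FPKM (-1.33), PLT2 from 39.7 to 20.3 (-0.94), PLT5 from 18.6 to 10.5 (-0.77) and PLT3 from 97.9 to 71.0 FPKM (-0.46). The rises were SHR, whose protein moves to the neighbouring layer to specify endodermis, from 2.58 to 8.12 FPKM (1.35), and TCP20, from 0.315 to 1.34 FPKM (0.83). WOX5, the quiescent centre gene, was under the filter at 0.289 and 0.746 FPKM. Among 9 measured growth factor peptide genes and partners 0 rose and 5 fell (median -0.66). After RGF2 and RGF3 these were RGF1, from 7.39 to 2.02 FPKM (-1.47), RGF8 (-0.55) and TPST, the enzyme that sulfates the peptides, from 15.3 to 7.29 FPKM (-0.98). PLT1 has 2 loci in the files, as do BRN2, BFN1, LOG7, GH3.1, CYP702A2, CBF1, CLE14, EXPA17, ASL5 and MIR824 below, and the value is that of the 1 locus carried by the authors' table.

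The 13 measured root cap genes split, with 4 rises and 5 falls, against 14.7% and 11.7% of all genes. FEZ and NAC094 fell as given above, as did SMB, a NAC factor of root cap maturation, from 129 to 87.8 FPKM (-0.55), and the auxin efflux carrier PIN3, from 14.5 to 4.90 FPKM (-1.39). Rises were found in other members. BRN2, a NAC factor of cap cell release, rose from 45.3 to 209 FPKM (2.18), and the cellulase genes CEL3 and CEL5 rose by 2.91 and 0.83, the second from 201 to 359 FPKM.

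Falls among cell division genes were mainly those of mitosis. Of 46 measured genes of mitosis and cytokinesis 26 fell and 1 rose (median -0.47), where 11.7% of all genes fell. CYCB2;2, a mitotic cyclin gene, fell from 14.1 to 5.93 FPKM (-1.12). KNOLLE, the syntaxin gene of the cell plate, fell from 80.5 to 47.9 FPKM (-0.74), TES, a kinesin gene of cytokinesis, from 6.94 to 3.74 (-0.74) and ATK1, a spindle kinesin gene, from 10.6 to 6.03 FPKM (-0.73). The 1 rise was CYCA2;1, from 1.07 to 2.31 FPKM. DNA replication genes were mostly without a call, their falls being near the 11.7% share of all genes. Of 49, 7 fell and 0 rose (median -0.18), among them CYCD3;3, a G1 cyclin gene, from 57.2 to 22.5 FPKM (-1.31), ORC5, from 2.55 to 1.08, and TSO2, a ribonucleotide reductase gene, from 65.5 to 45.4 FPKM (-0.52). PCNA1, the polymerase clamp gene, stood at 72.6 and 70.7 FPKM. Of 17 histone genes 4 fell and 1 rose, HTA8 falling from 164 to 108 FPKM, and of 34 ribosome biogenesis genes 2 fell and 0 rose.

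Regulators of exit from division had 4 rises and 3 falls among 25, shares near the 14.7% and 11.7% of all genes. SIM, an inhibitor that starts endoreduplication, rose from 1.14 to 9.52 FPKM (2.3), UPB1, a bHLH factor that controls peroxidases at the end of the meristem, from 6.88 to 33.6 FPKM (2.13) and GTL1, a trihelix factor that ends root hair growth, from 27.0 to 84.7 FPKM (1.61). The inhibitor genes KRP7 and KRP4 fell by 1.90 and 1.05. GRF1 and GRF2, growth-regulating factor genes, rose by 1.33 and 0.83, which were the 2 rises among 8 measured members of that module.

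Water channels and wall-loosening proteins are used in cell enlargement. Of 20 measured aquaporin genes 14 rose and 0 fell, against 14.7% and 11.7% of all genes, with a median of 1.01. TIP1;2, a tonoplast water channel, had 18.5 FPKM in Proximal, 200 in Medial and 266 in Distal cells (3.37), TIP4;1 at 5.34, 24.8 and 59.0 FPKM (2.03) and TIP1;1 at 16.8, 40.4 and 66.9 FPKM (1.21). NIP1;1 rose from 57.5 to 322 FPKM (2.46), and the plasma membrane channel PIP1;4 from 2.52 to 9.36 FPKM (1.56), while PIP1;2 stood at 282 and 301 FPKM without a call.

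Among 21 expansin genes, whose proteins loosen walls, 10 rose and 4 fell (median 0.70), against 14.7% and 11.7% of all genes. EXLA2 rose from 4.60 to 31.9 FPKM (2.55), EXPB1 from 7.46 to 37.3 (2.18) and EXPA17 from 3.79 to 13.4 (1.59), whereas EXPA4 fell from 34.9 to 12.4 FPKM (-1.42). Of 15 xyloglucan endotransglucosylase genes 10 rose and 1 fell (median 0.85), XTH19 from 107 to 301 FPKM (1.49) and XTH11 from 1.52 to 8.88 FPKM (1.97) among the rises. Arabinogalactan protein genes numbered 35, of which 21 rose and 4 fell (median 0.80). AGP22 rose from 1.83 to 23.0 FPKM (3.09), AGP12 from 42.8 to 279 (2.68) and AGP4 from 36.2 to 189 FPKM (2.35), against the fall of AGP5. Of 16 tubulin genes 5 rose and 1 fell, with TUB1 going from 7.99 to 70.3 FPKM (2.99) and TUB5 from 7.49 to 34.2 FPKM (2.05).

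Developmental cell death genes included 9 rises and 1 fall among 17 (median 0.96), against 14.7% and 11.7% of all genes. BFN1, a bifunctional nuclease gene, rose from 0.339 to 29.1 FPKM (4.49), and AT4G04460, of a saposin-like aspartyl protease, from 2.402 to 105 FPKM (4.96). CEP2, a cysteine protease gene, rose from 97.3 FPKM by 3.45, SCPL48 from 200 to 734 FPKM (1.87) and RNS2, a ribonuclease gene, from 24.9 to 48.5 FPKM (0.93). The xylem cysteine proteases XCP1 and XCP2 stood at differences of -0.03 and -0.21 without a call. These genes are known from root cap and xylem cells. Root cap markers fell and rose by member as given above. Xylem markers summed to 53.4 and 53.1 FPKM, of which XCP2 itself gave 32.9 and 28.2 FPKM. Such sums do not measure the number of cells of a type. The part of these cell types in the rises was not tested.

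Epidermal genes had 14 rises and 2 falls among 29 (median 0.39), against 14.7% and 11.7% of all genes. ZFP5, a zinc finger factor of root hair initiation, rose from 1.71 to 12.8 FPKM (2.35), MYB23, a factor of the non-hair fate, from 2.89 to 11.6 (1.69), RBOHC, the oxidase of root hair growth, from 0.915 to 4.04 (1.4) and PRP3, a hair wall protein gene, from 2.29 to 7.67 FPKM (1.4). GL2, which specifies the non-hair fate, rose from 4.72 to 10.7 FPKM (1.04), while WER, which acts before it, stood at 65.6 and 61.9 FPKM. Of 13 Casparian strip and endodermis genes 6 rose and 1 fell (median 0.88). CASP1, which builds the Casparian strip domain, rose from 1.996 to 9.47 FPKM (1.8), CASP2 from 1.67 to 4.099 (0.94) and UCC1 from 5.997 to 15.5 FPKM (1.24), and the layer's factor gene SCR stood at 6.69 and 6.85 FPKM.

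Vascular genes gave no common direction, where 14.7% of all genes rose and 11.7% fell. Early vascular and xylem identity genes had 5 rises and 5 falls among 21. XYP2 rose from 3.31 to 14.96 FPKM (1.89), ACL5, a thermospermine synthase gene, from 1.43 to 5.73 (1.47) and the cytokinin receptor gene WOL from 22.1 to 39.96 FPKM (0.83), whereas LHL2 fell from 4.02 to 1.45 FPKM (-1.04). Vessel wall genes had 4 rises and 5 falls among 35, shares near those of all genes, with differences from -0.77 to 1.13. COBL4 fell from 4.45 to 2.39 FPKM and MYB46, a master factor of secondary walls, from 5.16 to 2.89 FPKM. Of 11 phloem genes 0 rose and 2 fell, the larger being MAKR5, from 19.3 to 6.70 FPKM (-1.40). CYCD6;1, the cyclin of the ground tissue division, fell from 4.13 to 0.828 FPKM (-1.49), the 1 call among 8 cortex and ground tissue genes. Of 5 measured pericycle genes, SLAH3 rose from 3.67 to 14.3 FPKM (1.71) and BOR1 and XPL1 fell. Phloem and pericycle markers were as low as those of shoot cells, and whether these calls came from those tissues was not tested.

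Among hormone genes, those of auxin synthesis and inactivation rose in 11 of 25 and fell in 2, against 14.7% and 11.7% of all genes. TAA1, which makes the auxin precursor, rose from 7.89 to 30.2 FPKM (1.81) and TAR2 from 8.54 to 24.4 FPKM (1.41). The auxin-conjugating GH3.1 and GH3.6 rose by 1.92 and 1.38. The 22 auxin transport genes divided by member, with 7 rises and 5 falls. PIN4 fell from 227 to 81.3 FPKM (-1.47) and PIN7 from 19.2 to 5.02 FPKM (-1.75), beside PIN3. PIN2, the carrier of outer tissues, rose from 121 to 158 FPKM (0.39) and the influx carrier gene AUX1 from 114 to 197 (0.78). PILS5 rose from 4.49 to 50.5 FPKM (3.23) and the kinase gene WAG1 from 37.9 to 207 FPKM (2.42). Aux/IAA repressor and ARF genes had 8 rises and 8 falls among 41. IAA19 rose from 29.9 to 138 FPKM (2.17) and IAA5 from 1.63 to 11.1 (2.19), whereas IAA33, IAA30 and IAA20, members that lack the usual degron, fell by 1.69, 1.43 and 1.25.

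The cytokinin list had 10 rises and 4 falls among 36, against 14.7% and 11.7% of all genes. LOG7, of the last activation step, rose from 9.94 to 145 FPKM (3.74), IPT5, of the first, from 1.94 to 8.72 (1.73) and AHP2, a phosphotransmitter gene, from 4.43 to 13.1 FPKM (1.37). Gibberellin genes had 3 rises and 8 falls among 19 (median -0.30). The receptors GID1C and GID1A fell from 11.8 to 3.995 and from 12.2 to 7.003 FPKM, and the DELLA repressor genes RGL1 and RGL3 from 11.6 to 5.29 and from 5.02 to 2.76 FPKM. Ethylene genes had 6 rises and 9 falls among 34. RAP2.3, an ethylene response factor gene, fell from 117 to 36.5 FPKM (-1.65), while ACO4, of the last step of ethylene synthesis, rose from 27.0 to 57.3 FPKM (1.06). Brassinosteroid genes had 5 rises and 2 falls among 31, IBH1 rising from 9.94 to 31.6 FPKM and ROT3 falling from 40.1 to 14.4 FPKM. Jasmonate genes had 8 rises and 4 falls among 34, LOX4 rising from 36.5 to 99.3 FPKM and LOX1 falling from 13.4 to 5.82 FPKM.

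Among 46 nutrient and ion transport genes, 25 rose and 6 fell (median 0.49), against 14.7% and 11.7% of all genes. The sugar carrier STP1 rose from 26.0 to 162 FPKM (2.59) and STP13 from 1.76 to 15.6 (2.58), the zinc carrier ZIP2 from 2.96 to 16.5 (2.14) and the ferric reductase FRO3 from 2.43 to 13.2 FPKM (2.04). Of 16 genes of UPB1 and root peroxidases 7 rose and 2 fell (median 0.73). Lignin and phenylpropanoid genes had 8 rises and 1 fall among 25, with PAL1, the entry enzyme, going from 2.12 to 7.66 FPKM (1.47) and F3H, of flavonoid synthesis, falling from 53.2 to 21.04 FPKM (-1.3).

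The next lists were chosen after values had been seen, and their counts are description only. The genes for the root triterpenes thalianol and marneral rose in 6 of 6 (median 1.8), with MRN1 going from 7.25 to 53.0 FPKM, THAS1 from 6.25 to 46.4 and CYP708A2 from 48.8 to 276 FPKM. Of 17 cutin and wax genes 9 rose and 1 fell, GPAT8 from 0.494 to 21.1 FPKM (3.89) among the rises. Class III peroxidase genes had 19 rises and 4 falls among 32, led by AT2G18980 (1.77 to 38.2 FPKM). Jacalin-type lectin genes had 6 rises and 0 falls among 10. AT1G52050 and AT1G52070, with AT1G52060 between them, went from 86.4 to 1419 and from 1172 to 7205 FPKM. Of 8 berberine bridge enzyme-like genes 6 rose and 0 fell, AT5G44380 reaching 388 FPKM from 11.2 (4.99). Kinesin genes, by contrast, had 4 rises and 11 falls among 26. Pentatricopeptide repeat genes, also chosen in this way, had 1 rise and 8 falls among 144, and 135 had no call. Both shares are under the 14.7% risen and 11.7% fallen over all genes.

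Among transcription factor families, WRKY genes rose in 15 of 38 and fell in 5, against 14.7% and 11.7% of all genes. WRKY42 rose from 1.02 to 10.6 FPKM (2.53), WRKY72 from 20.5 to 88.5 (2.05), WRKY9 from 12.5 to 50.9 (1.95) and WRKY14 from 29.1 to 99.2 FPKM (1.73). NAC genes had 7 rises and 5 falls among 42, near the background in both directions, but with members at both extremes. ANAC046, a relative of ANAC087, rose from 2.696 to 28.8 FPKM (3.01). Lateral organ boundaries domain genes had 3 rises and 2 falls among 10, LBD13 rising from 122 to 298 FPKM (1.28).

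Enzyme families followed. Cytochrome P450 genes had 30 rises and 10 falls among 81, UDP-glycosyltransferase genes 12 and 6 among 32, and glutathione transferase genes 9 and 4 among 29. The falls of the cytochrome P450 and glutathione transferase genes were near the share of all genes. CYP702A2 rose from 0.980 to 15.4 FPKM (3.05), and GSTU22 from 250 to 955 FPKM (1.93). Serine carboxypeptidase-like genes had 9 rises and 1 fall among 21, SCPL34 rising from 41.4 to 755 FPKM (4.16). The 12 early nodulin-like genes had 5 rises and 4 falls, ENODL2 falling from 152 to 57.8 FPKM (-1.38). Actin depolymerizing factor genes had 1 rise and 2 falls among 9, and photosynthesis genes 0 calls among 5. CLE peptide genes had 2 rises, CLE14 and CLE12, among 10. Of 23 microRNA precursor rows 3 fell, near the share of all genes, and 0 rose. Among the falls, MIR172e at 28.0 FPKM and MIR159a at 8.51 FPKM in Proximal cells are listed at 0 in Medial and again above 0 in Distal cells.

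Genes that answer wounding and wall removal were called in both directions. Of 41 such genes 10 rose and 14 fell (median -0.14), against 14.7% and 11.7% of all genes. The cold and wound factor genes DREB1A and CBF1 fell from 71.3 to 27.0 and from 34.1 to 12.02 FPKM, ERF2 fell from 197 to 97.9 FPKM and the ubiquitin ligase gene PUB22 rose from 72.6 to 145 FPKM. Of 39 heat shock genes 6 fell and 3 rose, HSFC1 falling from 84.9 to 35.7 FPKM (-1.23). Their part in the other differences was not tested.

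**Figure D3:**
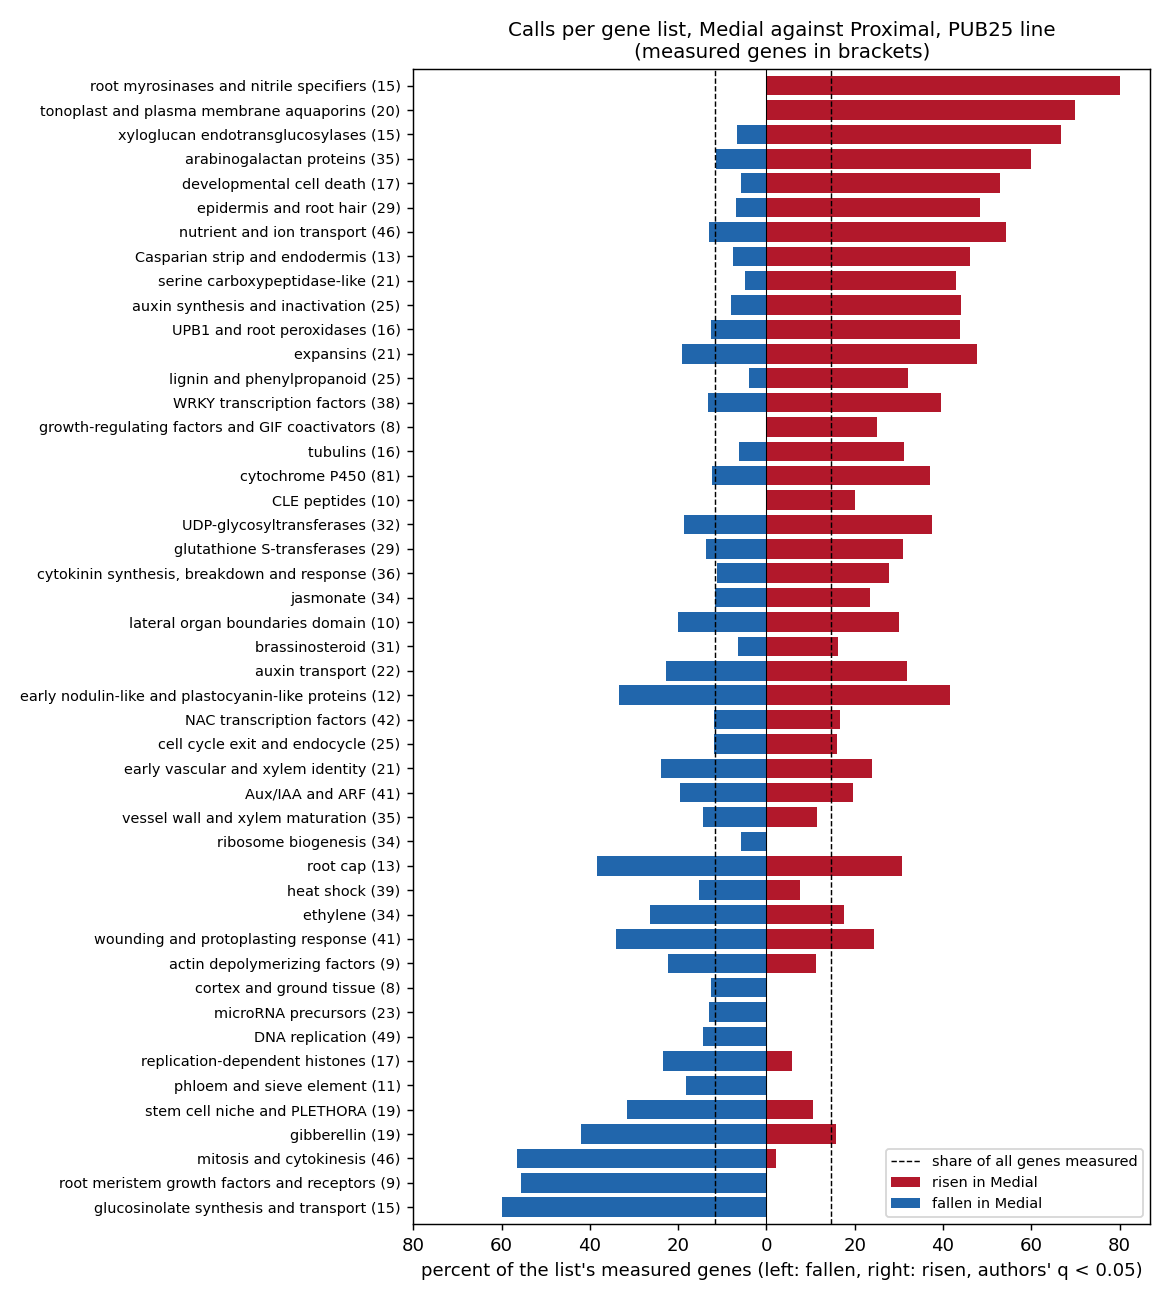
Percent of the measured genes of each list that rose (right, red) or fell (left, blue) in Medial against Proximal cells, as called in the authors' deposited table (q under 0.05), for lists with at least 8 measured genes, leaving out those added after values had been seen. Dashed lines mark the shares over all genes measured, 14.7% risen and 11.7% fallen. Myrosinase and aquaporin genes stand at the top and glucosinolate synthesis, growth factor and mitosis genes at the bottom.

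The SPT line gave a second, separately sorted pair of Medial and Proximal populations, with no library in common with the PUB25 line. Of 15908 genes passing the filter in both lines, 1093 stood at least 2-fold higher in PUB25 Medial cells, and 712 of these (65.1%) were also 2-fold higher in SPT Medial cells, against 14.5% of all 15908. They made up 30.8% of the 2310 genes that were 2-fold higher in the SPT line. Of the 1093, 19 were 2-fold lower there, against 13.1% of all. Of 429 genes 2-fold lower in PUB25 Medial cells 178 (41.5%) were 2-fold lower in SPT Medial cells, against 13.1% of all. A further 50 of the 429 were 2-fold higher there, against 14.5% of all. Those 178 were 8.55% of the SPT line's own lower genes. Across genes, which are no independent replicates, the differences in the 2 lines had a Pearson r of 0.435 and a Spearman rho of 0.455.

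**Figure D4:**
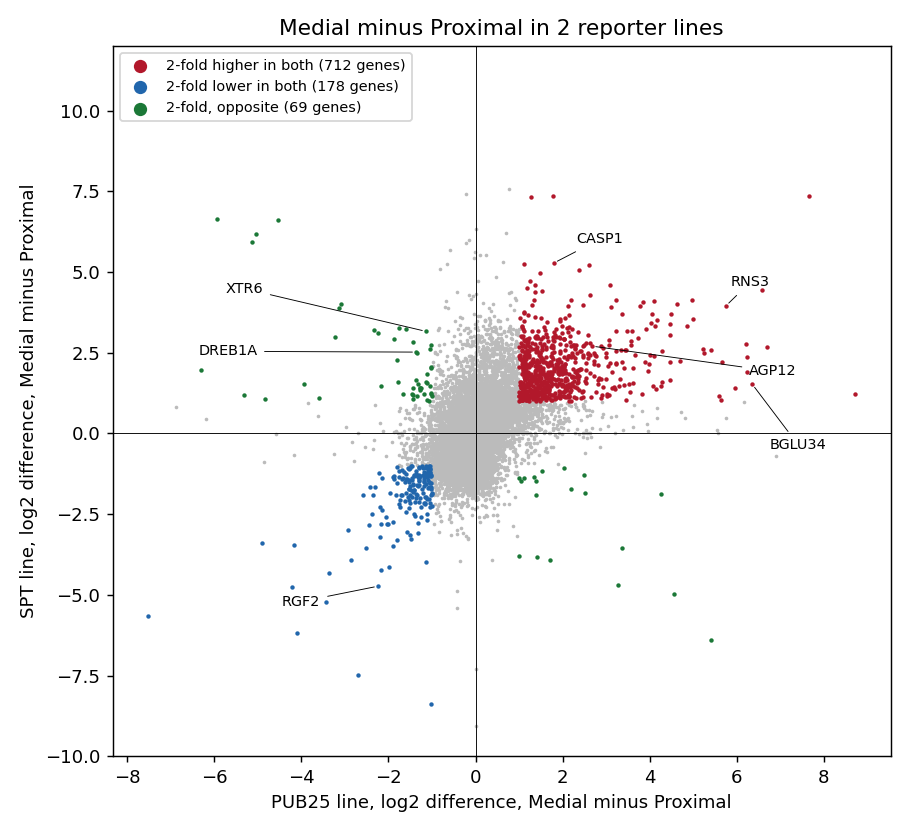
Difference between Medial and Proximal cells, as log2 ratio of FPKM + 1, in the PUB25 line (x axis) and the SPT line (y axis) for the 15908 genes passing the filter in both, 1 point per gene. Genes 2-fold higher in both lines (712) outnumber those lower in both (178), and the opposite corners hold 19 and 50.

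Most leading PUB25 genes differed the same way in the SPT line, with exceptions. Of the 15 largest rises 12 were at least 2-fold higher in SPT Medial cells, 8 of them called in the authors' deposited table, and of the 15 largest falls 12 were at least 2-fold lower, 11 with such a q value. The fallen gene MYB51 stood at 1.77 and 3.501 FPKM in SPT Proximal and Medial cells (0.70) and FP6 at 21.96 and 23.3 FPKM (0.08), and CSLB02, among the rises, at 0.120 and 0.202 FPKM (0.10), all without a call. For the rises the SPT Medial median was 6.93 FPKM, against 104 FPKM in PUB25 Medial cells, and the SPT Distal median 249 FPKM. BGLU34 stood at 2.08, 7.81 and 1774 FPKM in SPT Proximal, Medial and Distal cells, with a rise called at both steps in each line. MC9, at 0.613, 25.2 and 249 FPKM, and RNS3, at 0.187, 17.42 and 187 FPKM, had their SPT Medial levels in between. RGF2 fell from 87.4 to 2.32 FPKM in SPT Medial cells and ADF9 from 278 to 14.9 FPKM, both lower there than in PUB25 Medial cells. Levels were not tested between lines.

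**Figure D5:**
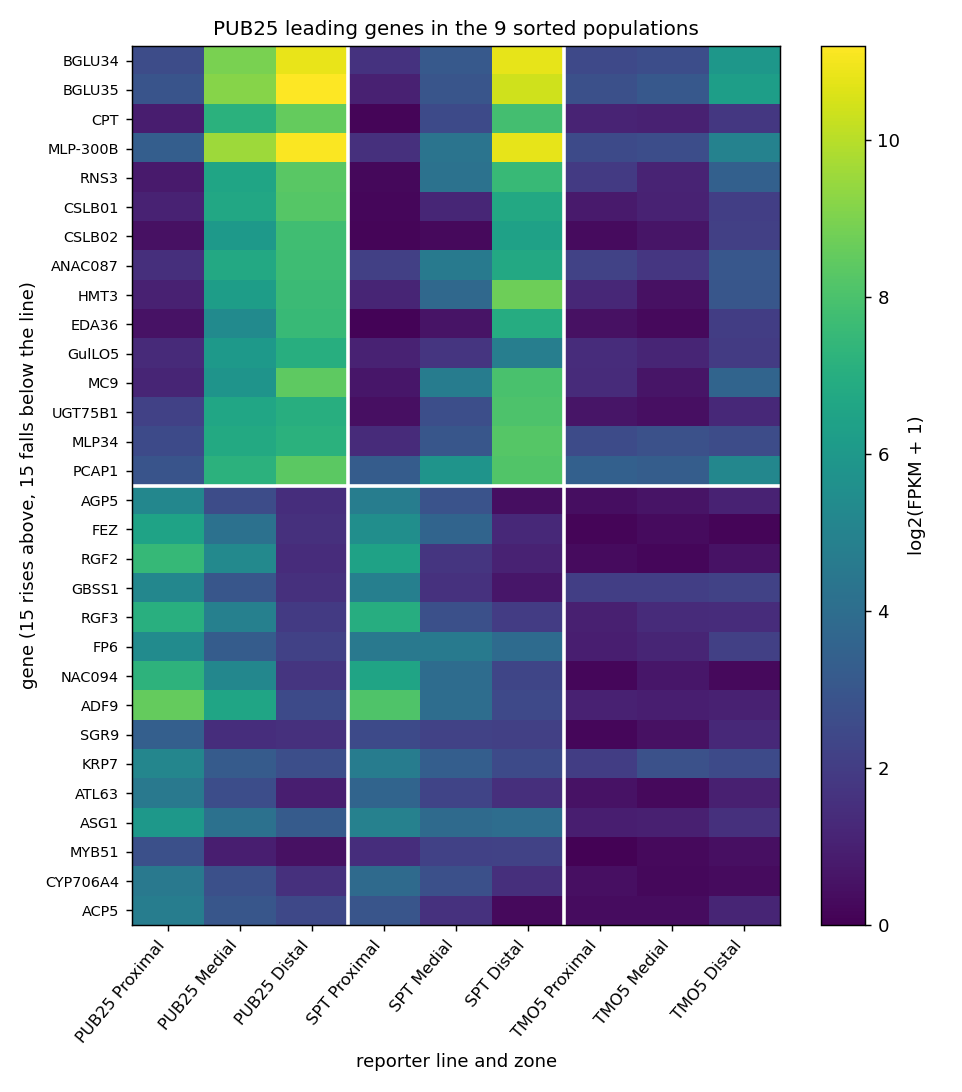
Levels as log2(FPKM + 1) (color scale) of the 15 largest PUB25 rises and the 15 largest falls in the 9 sorted populations, 3 zones for each of 3 reporter lines with 1 pooled value each. The rises are high in PUB25 Medial, PUB25 Distal and SPT Distal cells, and the falls in the Proximal cells of the PUB25 and SPT lines.

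Several lists had unlike counts in the 2 lines, a difference that was not tested. In the SPT line 17.4% of genes rose and 17.3% fell in Medial cells by the authors' deposited table. Cytosolic and organelle ribosomal protein genes, a list chosen after values had been seen, had 10 rises and 4 falls among 304 in the PUB25 line (median 0.04) and 3 rises and 237 falls among 299 in the SPT line (median -1.2). Ribosome biogenesis genes fell in 2 of 34 and in 30 of 34, and DNA replication genes in 7 of 49 and in 30 of 48. Vessel wall genes had 4 rises and 5 falls among 35 in the PUB25 line and 25 rises and 0 falls among 35 in the SPT line. Genes that answer wounding and wall removal had 10 rises and 14 falls among 41, and in the SPT line 21 rises and 0 falls among 41. Jasmonate genes rose in 8 of 34 in the PUB25 line and in 23 of 33 in the SPT line. Epidermal genes went the other way, with 14 rises and 2 falls among 29 against 6 rises and 8 falls among 28. Among lists with like counts, the aquaporins had 14 rises and 0 falls of 20, and in the SPT line 16 rises and 1 fall of 20. Their medians were 1.01 and 2.65. Glucosinolate synthesis had 0 rises and 9 falls of 15, and in the SPT line 2 rises and 8 falls of 15.

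Few genes were called in the TMO5 xylem line. The authors' deposited table calls 4 genes risen (0.0266%) and 28 fallen (0.186%) between its Medial and Proximal cells, among 15061 measured. Of 748 genes 2-fold higher in PUB25 Medial cells and measured in both lines, 15 (2.01%) were 2-fold higher there, against 0.51% of 14518. More of the 748 went the opposite way, with 68 being 2-fold lower, against 2.29% of all. Of 292 lower genes 41 (14.0%) were 2-fold lower, against 2.29% of all, and 8 were 2-fold higher, against 0.51%. None of the 15 rises and none of the 15 falls was 2-fold the same way in that line. For the rises this is near the 0.51% share of all genes. The 15 falls had TMO5 medians of 0.359 FPKM in Proximal and 0.487 in Medial cells. A gene under 1 FPKM in Proximal cells cannot fall 2-fold on log2(FPKM + 1), so for most of the falls the outcome was fixed. The 15 rises had TMO5 medians of 1.72 FPKM in Proximal, 1.16 in Medial and 6.98 in Distal cells, where the highest reached 75.4 FPKM.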

How the data were processed

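RNA of FACS-sorted root meristem protoplasts was extracted with a QIAGEN RNeasy micro kit and amplified with a NuGEN Ovation ultralow kit, per the labels' protocols. Bowtie, TopHat, Cufflinks, Cuffdiff and the TAIR10 build are named in the submitters' processing notes, with no versions or order. Strandedness is not given in the sources used here. The authors deposited a single FPKM per gene for each zone, with a log2 fold change and a q-value (adjusted p-value) for each pair of zones. Values per library were not analysed here, so no error, n or test of replicates could be computed, and the depth behind each value is unknown.

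From the FPKM, log2(FPKM + 1) differences were computed, which understate the change of low genes. Genes were kept where the 3 zones averaged 1 FPKM or more. Of the 16605 genes measured, 805 are rows joining several genes. The authors' log2 fold was recomputed from the FPKM to within 1.3e-05 for genes above 0 in both zones. The arithmetic of the 2-fold counts was checked on simulated data with known answers, which is no test of the counts themselves. Genes named are the reporters, the 15 largest rises and 15 largest falls (1 gene and 1 locus with a symbol, above 0 in both zones, at least 5 FPKM in the higher zone, and called by the authors' deposited q-value, under 0.05), the 5 largest Medial extremes each way and up to 4 per list; others were named after their values were seen. The members and the 57 lists were chosen with earlier results of these data known, and 8 lists were added after values had been seen. A list is described by its counts and median beside those over all genes. Coordinates are those the authors deposited (TAIR10), and upstream sequences are from RefSeq TAIR10.1. Of 26616 single deposited loci, 99.0% covered the RefSeq gene to within 1000 bases and 17.9% had the same start and end. Python 3.11.15, numpy 2.4.6, pandas 2.3.3, scipy 1.17.1, matplotlib 3.10.9 and biopython 1.88 were used. Pseudocount, filter, scaling, fold and joined rows were varied.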

Additional observations from a re-analysis of the deposited data

Results flagged for a closer look

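Some named genes differed in opposite directions between reporter lines, always as Medial minus Proximal on the log2(FPKM + 1) scale, and the difference between lines was not tested. IAA30, an auxin response repressor gene, stood at -1.43 in the PUB25 line and 1.19 in the SPT line. DREB1A, a cold response factor gene, stood at -1.37 and 2.52. XTR6, a xyloglucan endotransglycosylase gene, stood at -1.14 and 3.16. The microRNA precursor MIR824 stood at -1.11 and 1.83. AGP12, an arabinogalactan protein gene, stood at 2.68 in the PUB25 line and -1.62 in the TMO5 line. Over all genes, 20 were 2-fold and called in the authors' deposited table (q under 0.05) in opposite directions in the PUB25 and SPT lines, 3 higher and 17 lower in PUB25 Medial cells, and 3 in the PUB25 and TMO5 lines. Without the q limit, 19 and 50 of 15908 genes were 2-fold in opposite directions in the PUB25 and SPT lines. Another 712 and 178 were 2-fold the same way. For the TMO5 line 68 and 8 of 14518 were opposite, and 15 and 41 the same way.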

How the results depend on the processing

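No paired analysis was possible because the files hold 1 pooled value per zone, and for the same reason no replicate could be left out. With a minimum mean of 5 FPKM the 477 genes at least 2-fold lower became 301, the 178 lower in both the PUB25 and SPT lines 107, the 15 higher in both the PUB25 and TMO5 lines 4 and the 41 lower in both 18. With a pseudocount of 0.1 the 15 became 48. Counting only genes with a q value under 0.05 in both lines in the authors' deposited table, an alternative chosen after seeing the data, gave 2 higher and 0 lower in both the PUB25 and TMO5 lines. A 4-fold limit left 330 higher and 81 lower genes, and a q value with a 2-fold difference 1026 and 353. The median of the early nodulin-like genes, 0.41 as reported, was -0.036 with no filter on low values. Without that filter 12 more list medians moved, all toward 0, among them myrosinases to 0.37, glucosinolate synthesis to -0.12, Casparian strip genes to 0.20, root peroxidases to 0.22, xyloglucan endotransglucosylases to 0.40 and expansins to 0. With a minimum mean of 5 FPKM 9 moved, among them the stem cell niche from 0.03 to -0.46, myrosinases to 1.35, cell death to 1.89, Casparian strip genes to 1.24 and auxin synthesis to 0.52. With the pseudocount of 0.1, 3 moved, expansins to 1.16, class III peroxidases to 1.35 and berberine enzymes to 2.91, and without joined rows and names of several loci the triterpene genes moved to 2.47. Under quantile normalization 6 named genes came under 2-fold, among them ACS8, and under median centring 4. For the counts that moved, apart from limits that admit fewer genes by construction, the cause was not tested. Low FPKM gave no steps of whole reads, so depth could not be recovered.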
